A study of Rattus norvegicus with 6 samples.

Results

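The genes Nqo1, Hmox1, Txnrd1, Srxn1, Osgin1, Akr7a3, Akr1b8, Me1 and Ephx1, all known targets of the transcription factor NRF2, were followed in the renal cortex of rats given benzyl acetate. They were listed by name and found on the arrays by matching each probe's accession to a gene symbol. The list makes up 9 of the 31179 genes tested and is measured by 16 of the 42355 detected probes. All 16 probes were well above background on all 6 arrays, so no member was lost to the detection filter. The treated group held 3 male Sprague-Dawley (Crl:CD(SD)) rats that received benzyl acetate, an ester used as a fragrance and flavouring, at 1000 mg/kg/day for 4 weeks. The vehicle group held 3 male rats of the same strain that received corn oil for the same 4 weeks. All animals were 5 weeks old at purchase. Each rat gave 1 renal cortex RNA sample and 1 single-colour Agilent array, and the labels call the animals biological replicates.

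Values below are log2 signals set against the 75th percentile of the same array, so a value of 0 lies at that percentile. The signal at the 75th percentile was 883 to 990 in the benzyl acetate arrays and 1003 to 1057 in the vehicle arrays, and 69.0% to 72.0% of probes were well above background. No spot was saturated, and no spot of a member was marked as an outlier. Benzyl acetate replicate 3 stood apart from the other arrays. Its Gapdh log2 signal at the 3′ end exceeded that at the 5′ end by 2.60, against 2.37 to 2.45 elsewhere. It also had the lowest 75th percentile, 883. Along PC1, the main axis on which the arrays differed, it scored 50.1, against -24.4 to -0.23 elsewhere. Whether its RNA quality differed was not tested. All 8 listed proximal tubule markers were tested, with a summed linear signal of 2115 to 2406 times the 75th percentile in the benzyl acetate arrays and 2085 to 2182 times in the vehicle arrays. Slide 1 held vehicle replicate 1 alone and slide 2 held the remaining 5 arrays, so a slide effect cannot be told apart from that animal. In tissue RNA of this kind, fewer cells of a type and less RNA per cell cannot be told apart.

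NRF2, encoded by Nfe2l2, is held at low levels by KEAP1, an adaptor that hands it to a CUL3 ubiquitin ligase for degradation. Oxidants and electrophiles modify cysteines of KEAP1, and NRF2 then accumulates, pairs with small MAF proteins and binds antioxidant response elements near its target genes. The targets reduce quinones and carbonyls, break down haem, recycle thioredoxin and supply NADPH, and several of them are used as markers of chemical stress in kidney and liver.

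Promoter windows from RefSeq on the GRCr8 rat assembly were searched for the core of the antioxidant response element, to show where members carry its letters next to the transcription start. Each window runs from 250 bases before to 50 bases after an annotated start, and 10 windows of 8 members were found. Hmox1 had no window and was not searched. The core searched was TGACNNNGC, on both strands. It occurred in 3 of the 10 windows, against 12.1% of 33469 windows of all genes. The stretches below show these 3 matches and 1 of 2 matches in Srxn1 to TGANTCA, a related site of the AP-1 family, with the match in capitals. Each is read 5′ to 3′ on the gene's own strand.
Me1: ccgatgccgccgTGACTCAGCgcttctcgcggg
Ephx1: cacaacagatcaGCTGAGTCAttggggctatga
Txnrd1: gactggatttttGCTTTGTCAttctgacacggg
Srxn1: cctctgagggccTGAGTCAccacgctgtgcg

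The Me1 stretch lies at chr8:96540391-96540423 on the minus strand, with the match 167 bases before the start. The Ephx1 stretch lies at chr13:95263154-95263186 on the minus strand, and its match, 57 bases before one of the annotated starts, reads as the element on the opposite strand. The Txnrd1 stretch lies at chr7:22755962-22755994 on the minus strand, and its match, 78 bases before one of the annotated starts, is also on the opposite strand. The Srxn1 stretch lies at chr3:161064738-161064768 on the plus strand, 62 bases before the start. The Srxn1 match not shown lies 5 bases before the start and is followed by the letters GC, without matching the longer core. TGANTCA occurred in 3 of the 10 member windows and in 7.33% of all windows, and it overlaps the longer core in Me1 and Ephx1. These are matches of letters within short windows and do not show binding.

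No member passed the test for a difference between benzyl acetate and vehicle. With limma and Benjamini-Hochberg adjustment over all 31179 genes, 0 of 9 members had an adjusted p under 0.05, against 0% of all genes. At an unadjusted p under 0.05 the count was also 0 of 9, against 6.74% of all genes. The benzyl acetate mean was above the vehicle mean for 6 members, against 54% of all genes, and below it for 3. The median log2 difference was 0.11 over the members and 0.012 over all genes. Both the balance and the median turned within slide 2, without vehicle replicate 1, where 4 members were higher and 5 lower with a median of -0.054. Without benzyl acetate replicate 3 the counts were also 4 and 5, with a median of -0.0037. The 95% intervals nevertheless bound the size of any difference. For 4 members, Hmox1, Txnrd1, Akr7a3 and Ephx1, the whole interval lay within a 1.5-fold change in either direction, as it did for 73.9% of all genes. For 8 members it lay within a 2-fold change, against 91.5% of all genes, and the exception was Akr1b8. A single member, Ephx1, had groups that did not overlap, against 12.8% of all genes.

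**Figure D1:**
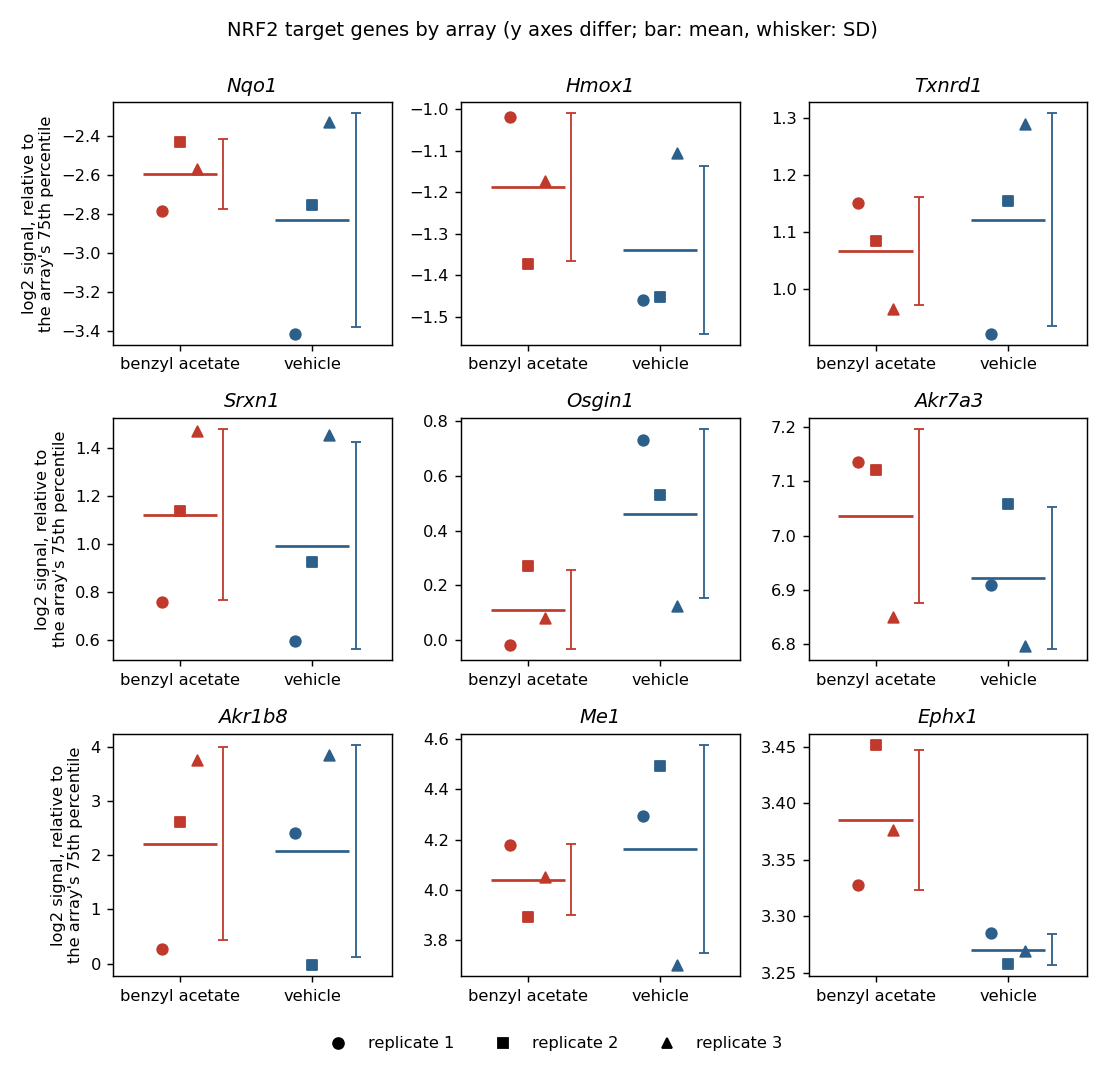
Log2 signal of the 9 members, with 0 at the array's 75th percentile, 1 panel per gene with its own y axis, benzyl acetate on the left and vehicle on the right. Points are arrays with the replicate number as the symbol, the horizontal bar is the group mean and the whisker the SD (n = 3). The groups overlap in every panel except Ephx1, where the benzyl acetate arrays read 3.33 to 3.45 and the vehicle arrays 3.26 to 3.29.

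Nqo1 encodes NAD(P)H quinone dehydrogenase, which reduces quinones by a pair of electrons and is among the most used readouts of NRF2. Its log2 signal was -2.78, -2.43 and -2.57 in benzyl acetate replicates 1, 2 and 3, and -3.41, -2.75 and -2.33 in vehicle replicates 1, 2 and 3. All benzyl acetate arrays lay between the lowest and the highest vehicle array. The means were -2.59 ± 0.177 with benzyl acetate and -2.83 ± 0.546 with vehicle (SD, n = 3 each). The log2 difference was 0.24 (95% interval -0.44 to 0.92, limma adjusted p = 0.896). The interval excludes a rise above 1.89-fold and a fall above 1.36-fold. Vehicle replicate 1, alone on its slide, was the lowest array. Within the other slide, with that array out, the difference was -0.054, so the sign of the Nqo1 difference rested on 1 vehicle animal.

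The second Nqo1 probe followed the same array order within each group. It read -4.65, -4.30 and -4.52 in the benzyl acetate arrays and -5.01, -4.38 and -4.07 in the vehicle arrays. Its log2 difference was -0.0052 (95% interval -0.61 to 0.60), excluding a rise above 1.52-fold and a fall above 1.53-fold. Vehicle replicate 1 was again the lowest and vehicle replicate 3 the highest of all 6 arrays.

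Hmox1 encodes haem oxygenase 1, which opens the haem ring to biliverdin, iron and carbon monoxide and is induced in injured tubules. Its single probe read -1.02, -1.37 and -1.17 in the benzyl acetate arrays and -1.46, -1.45 and -1.11 in the vehicle arrays. The groups overlapped because vehicle replicate 3 stood above benzyl acetate replicates 2 and 3. The means were -1.19 ± 0.178 with benzyl acetate and -1.34 ± 0.202 with vehicle, a log2 difference of 0.15 (95% interval -0.19 to 0.49, limma adjusted p = 0.861). A rise above 1.41-fold and a fall above 1.14-fold lie outside the interval. Macrophages also express Hmox1. Of 7 listed macrophage markers 6 were tested, Cd163 being the one not tested, and all 6 had a lower mean with benzyl acetate, none past the adjusted threshold. Their summed linear signal was 66.6 to 101 times the 75th percentile in the benzyl acetate arrays and 81.2 to 91.8 times in the vehicle arrays. Their part in the Hmox1 values was not tested.

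Txnrd1 encodes cytosolic thioredoxin reductase, the selenoenzyme that passes electrons of NADPH to thioredoxin. Its 4 probes gave the narrowest set of intervals among the members with several probes. The probe used for the gene read 1.15, 1.08 and 0.96 in the benzyl acetate arrays and 0.92, 1.15 and 1.29 in the vehicle arrays. The vehicle arrays enclosed the benzyl acetate arrays. The means were 1.07 ± 0.0952 with benzyl acetate and 1.12 ± 0.187 with vehicle, a log2 difference of -0.055 (95% interval -0.34 to 0.23, limma adjusted p = 0.952). This excludes a rise above 1.17-fold and a fall above 1.26-fold.

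The other Txnrd1 probes differed from it in sign. Probe A_44_P456738 read 1.11, 1.03 and 1.16 in the benzyl acetate arrays and 1.18, 1.06 and 0.91 in the vehicle arrays. Vehicle replicate 1 was therefore the highest array on this probe and the lowest on the first. Its log2 difference was 0.050 (95% interval -0.17 to 0.27). Probe A_44_P554454 read 1.03, 1.14 and 0.96 in the benzyl acetate arrays and 1.014, 1.06 and 1.04 in the vehicle arrays, a difference of 0.0048 (95% interval -0.17 to 0.18). On probe A_64_P076475 the groups did not overlap, with -1.24, -1.22 and -1.26 in the benzyl acetate arrays and -1.28, -1.34 and -1.32 in the vehicle arrays. The difference there was 0.072 (95% interval -0.075 to 0.22, limma adjusted p over all probes = 0.856), which excludes a rise above 1.16-fold. In this fit no Txnrd1 probe, each taken alone, left room for a rise above 1.21-fold. The upper end of the gene's interval reached 0.33 on the log2 scale with 1 array left out, and 0.32 under the other alternatives.

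Srxn1 encodes sulfiredoxin, which repairs peroxiredoxins whose cysteine has been over-oxidised. Its log2 signal was 0.76, 1.14 and 1.47 in the benzyl acetate arrays and 0.60, 0.93 and 1.45 in the vehicle arrays. Each group spanned nearly the same values, and the highest arrays of both groups lay within 0.02 of each other. The means were 1.12 ± 0.356 with benzyl acetate and 0.99 ± 0.432 with vehicle, a log2 difference of 0.13 (95% interval -0.53 to 0.80, limma adjusted p = 0.952). A rise above 1.74-fold and a fall above 1.45-fold are excluded. With vehicle replicate 1 left out, the difference was -0.067, and with benzyl acetate replicate 3 left out it was -0.043. The second Srxn1 probe read -4.13, -4.16 and -3.88 in the benzyl acetate arrays and -4.00, -4.26 and -3.69 in the vehicle arrays. Replicate 3 was the highest of each group on this probe as well, and the groups overlapped. Its difference was -0.070 (95% interval -0.47 to 0.33).

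**Figure D2:**
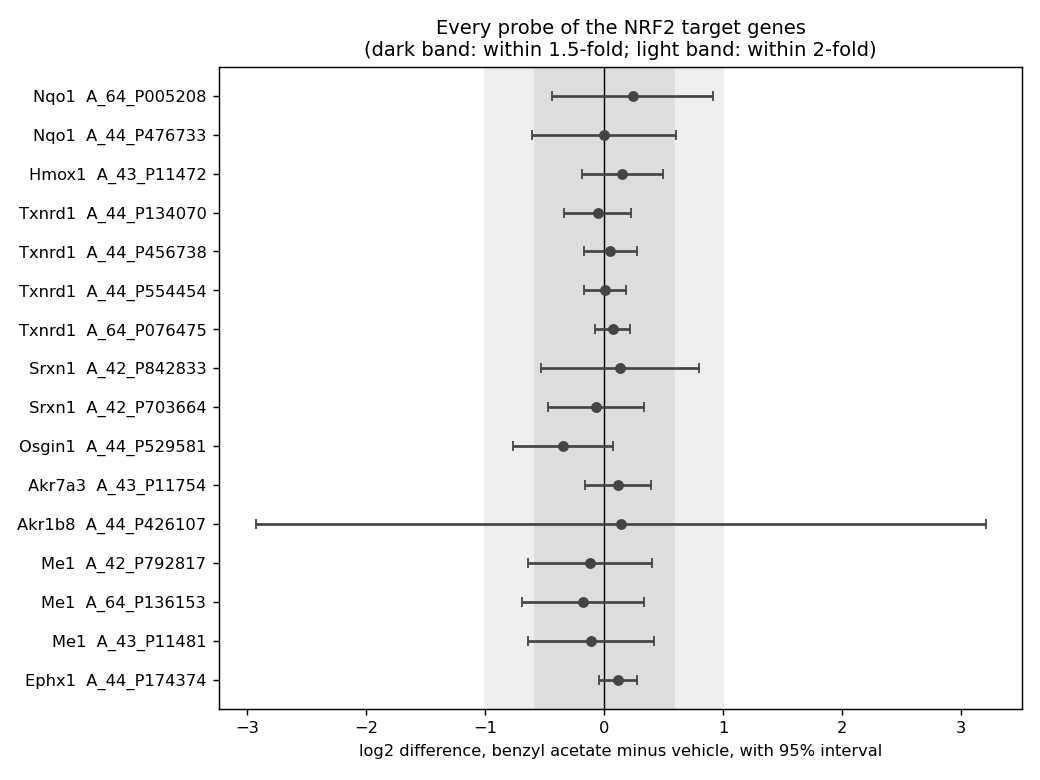
Log2 difference, benzyl acetate minus vehicle, with its 95% interval from limma for each of the 16 probes of the 9 genes. The dark band marks a 1.5-fold and the light band a 2-fold change in either direction. The intervals of 8 probes lie within 1.5-fold and those of 15 within 2-fold, and the Akr1b8 probe spans both bands and beyond.

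Over the 16 member probes taken one by one, 9 had a positive and 7 a negative difference, with a median of 0.027, and 53% of all detected probes had a positive one. None had a limma adjusted p under 0.05, against 0% of all detected probes, and none had an unadjusted p under 0.05, against 6.69%. The groups did not overlap for 2 of 16 probes, those of Ephx1 and one of Txnrd1, against 12.7% of all detected probes. The interval lay within 1.5-fold for 8 probes and within 2-fold for 15, against 74.7% and 91.8% of all detected probes. Nqo1, Srxn1 and Txnrd1 had probes on both sides of 0, and the 3 Me1 probes were all below 0.

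Akr7a3 encodes an aldo-keto reductase that reduces aflatoxin dialdehyde and other carbonyls. It read 7.14, 7.12 and 6.85 in the benzyl acetate arrays and 6.91, 7.06 and 6.80 in the vehicle arrays. Replicate 3 was the lowest array of each group, and the groups overlapped. The means were 7.04 ± 0.160 with benzyl acetate and 6.92 ± 0.131 with vehicle, a log2 difference of 0.11 (95% interval -0.16 to 0.39, limma adjusted p = 0.875). A rise above 1.31-fold and a fall above 1.12-fold lie outside the interval.

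Akr1b8 encodes an aldo-keto reductase of the aldose reductase group that reduces aldehydes. It behaved unlike the other members in its spread between animals. It read 0.26, 2.61 and 3.76 in the benzyl acetate arrays and 2.41, -0.031 and 3.85 in the vehicle arrays. Each group held 1 array near 0 and 1 near 4, so the groups covered nearly the same span. The 6 arrays ranged over 3.88 on the log2 scale, a 14.8-fold difference between the lowest and the highest animal. Only 0.324% of all tested genes had a range at least as wide, and Akr1b8 stood at rank 101. The range was 3.50 within the benzyl acetate group and 3.88 within the vehicle group.

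The Akr1b8 means were 2.21 ± 1.78 with benzyl acetate and 2.08 ± 1.96 with vehicle, a log2 difference of 0.14 (limma adjusted p = 0.995). The 95% interval, -2.94 to 3.22, excludes only a rise above 9.31-fold and a fall above 7.70-fold. Leaving out 1 array at a time moved the difference to -0.92 when vehicle replicate 2 was dropped and to 1.11 when benzyl acetate replicate 1 was dropped, the lowest and highest of the 6 values. Akr1b8 is represented by 1 probe, and probes of near-identical aldo-keto reductases can share signal. Akr1b10, a close relative, read 1.05, 1.06 and 2.23 in the benzyl acetate arrays and 1.35, 0.84 and 1.97 in the vehicle arrays. Replicate 3 was the highest array of each group, as for Akr1b8, while benzyl acetate replicates 1 and 2 were almost level. The second Akr1b10 probe read 0.12, -0.086 and 0.90 in the benzyl acetate arrays and 0.63, -0.30 and 0.75 in the vehicle arrays, so its lowest benzyl acetate array was replicate 2, not replicate 1 as for Akr1b8. The log2 difference was 0.058 on the first probe and -0.045 on the second.

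Transcripts with the array pattern most like that of Akr1b8 were looked up after its values were seen, by the mean absolute difference of the log2 signals from each gene's mean over the 6 arrays. The 3 closest had no gene symbol. The first, ENSRNOT00000033720, read -1.14, 0.42 and 1.71 in the benzyl acetate arrays and 0.75, -1.52 and 1.66 in the vehicle arrays, a mean absolute difference of 0.317. The closest with a symbol was Doc2b, at 0.689. Gpx2, a glutathione peroxidase and NRF2 target, read 3.17, 3.81 and 3.54 in the benzyl acetate arrays and 4.30, 2.87 and 4.88 in the vehicle arrays. Its lowest array in each group was also the lowest for Akr1b8, whereas in the benzyl acetate group its highest array was replicate 2 and that of Akr1b8 replicate 3.

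**Figure D3:**
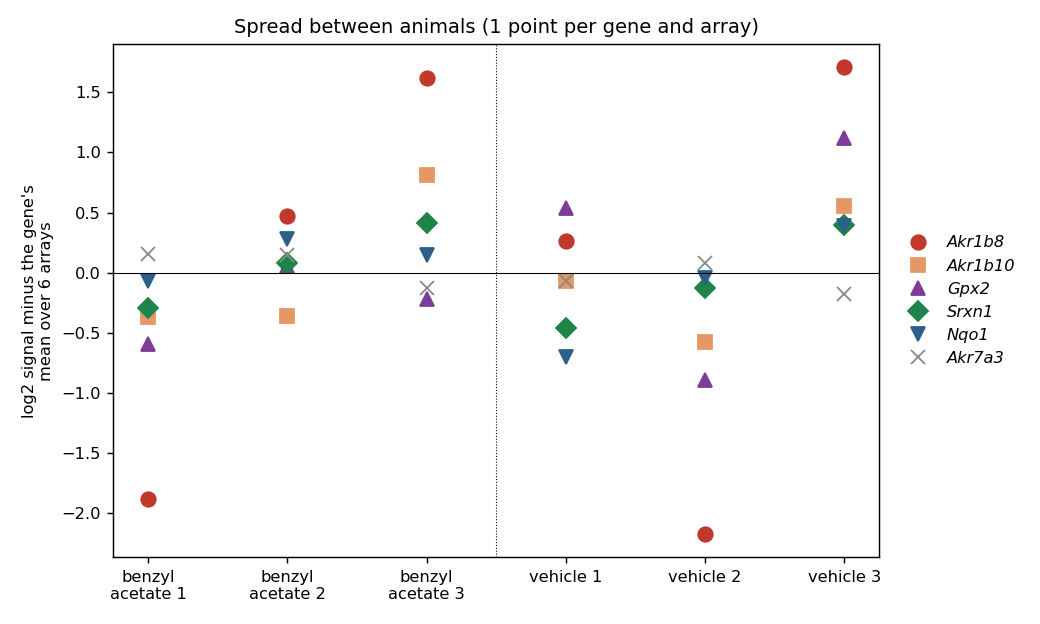
Log2 signal of Akr1b8, Akr1b10, Gpx2, Srxn1, Nqo1 and Akr7a3 minus the gene's mean over the 6 arrays, with the benzyl acetate arrays left of the vehicle arrays and 1 point per gene and array. Akr1b8 spans 3.88, with its lowest points in vehicle replicate 2 and benzyl acetate replicate 1, while the Akr7a3 points stay near 0.

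Ephx1 encodes microsomal epoxide hydrolase, which adds water to reactive epoxides. It read 3.33, 3.45 and 3.38 in the benzyl acetate arrays and 3.29, 3.26 and 3.27 in the vehicle arrays. Every benzyl acetate array was above every vehicle array, by a small margin. The means were 3.39 ± 0.0622 with benzyl acetate and 3.27 ± 0.0137 with vehicle. The log2 difference was 0.11 (95% interval -0.044 to 0.27, limma unadjusted p = 0.128, adjusted p = 0.788). The interval leaves room for at most a 1.21-fold rise and a 1.03-fold fall. The difference was positive with each array left out, between 0.081 and 0.14. Across all genes, 7.51% had non-overlapping groups in this direction.

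Me1 encodes cytosolic malic enzyme, which makes NADPH from malate. It read 4.18, 3.89 and 4.05 in the benzyl acetate arrays and 4.29, 4.49 and 3.70 in the vehicle arrays. The vehicle arrays held both the highest and the lowest value. The means were 4.04 ± 0.142 with benzyl acetate and 4.16 ± 0.413 with vehicle, a log2 difference of -0.12 (95% interval -0.65 to 0.40, limma adjusted p = 0.940). A rise above 1.32-fold and a fall above 1.57-fold are excluded.

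The other Me1 probes placed the 6 arrays in the same order. Probe A_64_P136153 read 2.26, 1.96 and 2.11 in the benzyl acetate arrays and 2.38, 2.63 and 1.86 in the vehicle arrays, a difference of -0.18 (95% interval -0.69 to 0.33). Probe A_43_P11481 read 1.95, 1.71 and 1.82 in the benzyl acetate arrays and 2.06, 2.28 and 1.47 in the vehicle arrays, a difference of -0.11 (95% interval -0.64 to 0.41). On all 3 probes vehicle replicate 2 was highest and vehicle replicate 3 lowest, so the low value of that animal does not rest on 1 probe. Fat cells also express Me1, and 4 of 6 listed adipocyte markers were tested, Plin1 and Lep being those not tested. Of these, 2 had a higher and 2 a lower mean with benzyl acetate, and their summed linear signal was 208 to 240 times the 75th percentile in the benzyl acetate arrays and 190 to 227 times in the vehicle arrays. Pck1, which proximal tubules also express, made up 99.3% to 99.7% of that sum, so the sum does not follow fat cells. The other 3 markers summed to 0.999 to 1.495 times the 75th percentile in the benzyl acetate arrays and 0.759 to 1.502 times in the vehicle arrays. Adipoq, the gene of the fat cell hormone adiponectin, read 0.037, 0.11 and -0.31 in the benzyl acetate arrays and -0.17, -0.31 and -0.70 in the vehicle arrays, a difference of 0.34. Cidec, a lipid droplet protein, read -1.59, -1.30 and -2.47 in the benzyl acetate arrays and -1.29, -0.83 and -2.97 in the vehicle arrays, a difference of -0.093. Vehicle replicate 3 was the lowest of all 6 arrays for both, and vehicle replicate 2 was the highest for Cidec but not for Adipoq. Fabp4, a fatty acid binding protein, read -8.04, -6.82 and -6.72 in the benzyl acetate arrays and -3.95, -2.95 and -5.86 in the vehicle arrays. Its groups did not overlap, a separation in this direction seen in 5.31% of all genes. The difference was -2.94 (95% interval -4.87 to -1.01, limma unadjusted p = 0.0098, adjusted p = 0.669). Fabp4 lay far below the 75th percentile, and a probe can enter the test through 1 group alone. How far the detection filter shaped this separation was not tested. The part of fat cells in the Me1 values was not tested.

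Osgin1 encodes oxidative stress induced growth inhibitor 1, a flavin-containing protein that restrains proliferation. It had the lowest unadjusted p of the members. It read -0.016, 0.27 and 0.081 in the benzyl acetate arrays and 0.73, 0.53 and 0.12 in the vehicle arrays. Vehicle replicates 1 and 2 stood above all benzyl acetate arrays, and vehicle replicate 3 lay among the benzyl acetate arrays. The means were 0.11 ± 0.145 with benzyl acetate and 0.46 ± 0.309 with vehicle. The log2 difference was -0.35 (95% interval -0.77 to 0.071, limma unadjusted p = 0.0882, adjusted p = 0.764). The interval excludes a rise above 1.05-fold and a fall above 1.70-fold. The difference was negative with each array left out, between -0.52 and -0.21.

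The members differed in how much they varied between animals. A wider range was found in 8.99% of all genes for Nqo1, 19.7% for Osgin1 and 83.9% for Ephx1, and Akr7a3 and Txnrd1 also varied less than most genes. The median range of the members over the 6 arrays was 0.75 on the log2 scale, against 0.39 over all genes, and the median distance from the difference to either end of its interval was 0.42, against 0.27. The range within the vehicle group was wider than that within the benzyl acetate group for 6 of 9 members, against 49.97% of all genes. Vehicle replicate 3 was the highest or lowest vehicle array for 8 of 9 members, against 66.2% of all genes. It was highest for Nqo1, Hmox1, Txnrd1, Srxn1 and Akr1b8 and lowest for Osgin1, Akr7a3 and Me1. Vehicle replicates 1 and 2 were so for 6 and 4 members. Benzyl acetate replicate 1 was the highest or lowest of its group for 9 of 9 members, against 63.6% of all genes, and benzyl acetate replicates 2 and 3 for 5 and 4. These counts depend on the probe. Benzyl acetate replicate 1 was the middle array of its group on Srxn1 probe A_42_P703664. It was also the middle one on every Txnrd1 probe except that used for the gene. On Txnrd1 probe A_44_P456738, vehicle replicate 3 was the lowest vehicle array. On Txnrd1 probes A_44_P554454 and A_64_P076475 it was the middle vehicle array. Vehicle replicate 3 also had the highest summed signal of the T cell markers, of which 6 of 7 were tested, Cd3e not. The sum was 1.71 to 2.04 times the 75th percentile in the benzyl acetate arrays and 2.07 to 4.58 times in the vehicle arrays, and its part in the values of that animal was not tested.

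**Figure D4:**
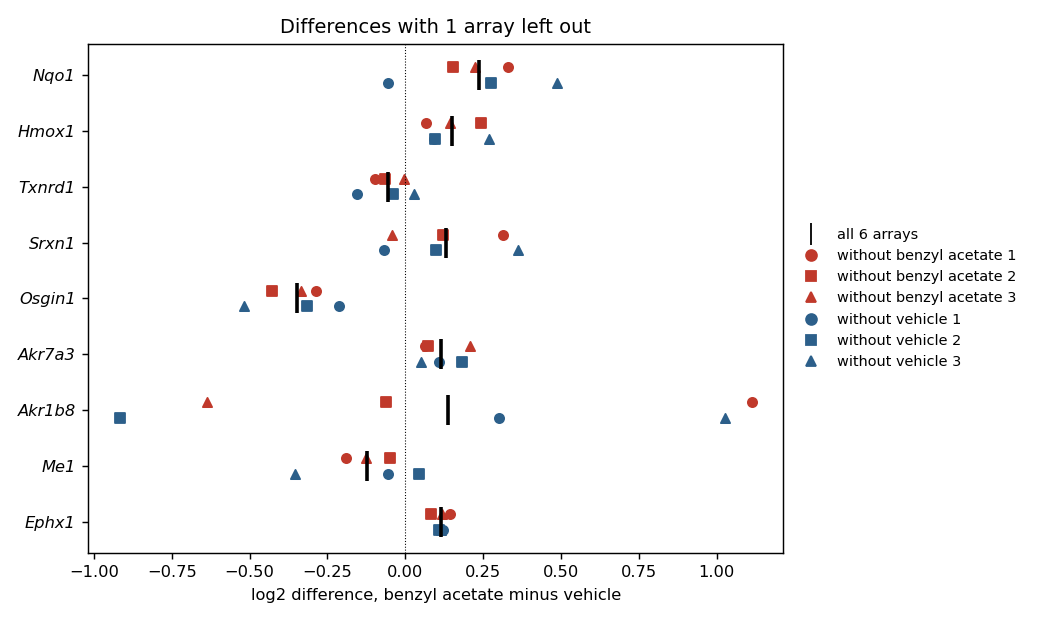
Log2 difference, benzyl acetate minus vehicle, of each member with all 6 arrays (vertical bar) and with 1 array left out (symbols, red for a benzyl acetate and blue for a vehicle array). Hmox1, Akr7a3 and Ephx1 stay above 0 and Osgin1 below 0, while the other 5 members cross 0 and Akr1b8 moves between -0.92 and 1.11.

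The activity of NRF2 is set largely after transcription, and no gene of its control passed the test. All 10 listed control genes were tested, each by its probe of highest mean signal, with 5 higher and 5 lower. On those probes 0 had an adjusted or an unadjusted p under 0.05, and the median log2 difference was 0.0085. Nfe2l2 read 3.83, 3.65 and 3.81 in the benzyl acetate arrays and 3.94, 3.74 and 3.94 in the vehicle arrays, a difference of -0.11 with overlapping groups. Keap1 differed by -0.049. Bach1, a repressor that competes with NRF2 for its sites, read -2.01, -1.83 and -1.85 in the benzyl acetate arrays and -2.01, -2.11 and -2.18 in the vehicle arrays. Its difference was 0.20 (limma unadjusted p = 0.0502, adjusted p = 0.736). The groups did not overlap, a separation in this direction seen in 7.51% of all genes, though benzyl acetate replicate 1 was nearly level with vehicle replicate 1. The other Bach1 probes differed by 0.35, with overlapping groups, and by 0.17, without overlap. Sqstm1, the autophagy receptor p62 that binds KEAP1, differed by 0.18, and Rbx1, the ring subunit of the CUL3 ligase, by -0.10.

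Of 27 other NRF2 targets 24 were tested, with 15 higher and 9 lower and a median log2 difference of 0.033. None had a limma adjusted p under 0.05, and 4 had an unadjusted p under 0.05, 2 in each direction, against 3.82% of all genes higher and 2.92% lower at that level. Gsta2, a glutathione S-transferase, read 7.65, 7.75 and 7.73 in the benzyl acetate arrays and 8.29, 8.03 and 8.002 in the vehicle arrays. Every benzyl acetate array was lower than every vehicle array, a separation seen in 5.31% of all genes, with a difference of -0.40 (95% interval -0.64 to -0.15, limma adjusted p = 0.660). Gstm1, another glutathione S-transferase, named here after its values were seen, stood the other way. It read 2.29, 2.22 and 2.42 in the benzyl acetate arrays and 1.14, 2.01 and 1.30 in the vehicle arrays, a difference of 0.83 (95% interval 0.26 to 1.40, limma adjusted p = 0.670). The groups did not overlap, and vehicle replicate 2 was nearest to the benzyl acetate arrays. Htatip2, an oxidoreductase, differed by 0.24 (limma adjusted p = 0.669) on the probe used, without overlap of the groups. On its second probe the difference was 0.010 (95% interval -0.29 to 0.31), with overlapping groups. The ferritin chains Ftl1 and Fth1, which store iron, differed by 0.060 and 0.0007.

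Around Txnrd1 and Srxn1, 13 of 14 thioredoxin and peroxiredoxin genes were tested, with 8 higher and 5 lower, a median of 0.032 and 0 with an unadjusted p under 0.05. Prdx1, a peroxiredoxin and NRF2 target, read 4.58, 4.67 and 4.802 in the benzyl acetate arrays and 4.64, 5.13 and 5.47 in the vehicle arrays, a difference of -0.39 with overlapping groups. It was -0.61 without vehicle replicate 1 and -0.20 without vehicle replicate 3. Prdx6 differed by 0.13, Prdx5 by 0.032, and thioredoxin itself, Txn1, by 0.10. Around Me1, 8 of 10 NADPH-producing enzymes were tested, with 3 higher and 5 lower, a median of -0.024 and 0 with an unadjusted p under 0.05. Within this list NAD kinase, Nadk, differed by -0.13, mitochondrial isocitrate dehydrogenase Idh2 by 0.099, and transketolase, Tkt, by 0.065. Of 9 haem and ferritin genes, all tested, 6 were higher and 3 lower, with a median of 0.033 and 0 with an unadjusted p under 0.05. Biliverdin reductase Blvra, which acts after haem oxygenase, differed by -0.32, by -0.47 with vehicle replicate 3 dropped and by -0.17 with benzyl acetate replicate 2 dropped. Hmox2, the constitutive haem oxygenase, differed by 0.11.

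**Figure D5:**
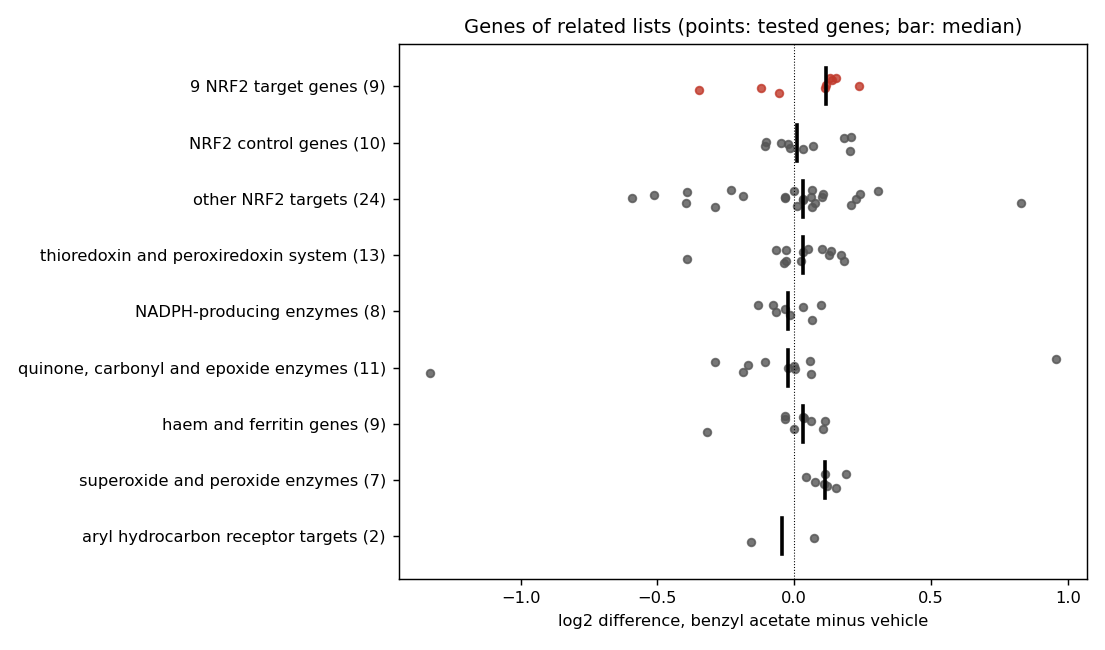
Log2 difference, benzyl acetate minus vehicle, of each tested gene (points) in the 9-gene set (red) and 8 related lists (grey), with the list median as a vertical bar and the number of tested genes in brackets. The medians lie between -0.044 and 0.11, and the farthest points are Cryz at -1.33 and Ephx2 at 0.96.

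The quinone, carbonyl and epoxide enzymes held the largest single difference of these lists. Of 12 listed, 11 were tested, with 5 higher and 6 lower and a median log2 difference of -0.022. Cryz, a quinone reductase that uses NADPH, also called zeta-crystallin, read 2.66, 2.58 and 2.56 in the benzyl acetate arrays and 3.76, 3.92 and 4.13 in the vehicle arrays. The groups were far apart relative to their spread, with a difference of -1.33 (95% interval -1.59 to -1.07), yet the limma p adjusted over all genes was 0.271. No gene had a lower adjusted value, though genes can share an adjusted value. Over all probes the limma adjusted p of Cryz was 0.234, against a lowest of 0.223. Cbr3, a carbonyl reductase, differed by -0.29 (limma adjusted p = 0.700). These were the 2 genes of the list with an unadjusted p under 0.05, both lower, against 2.92% of all genes lower at that level. The aldo-keto reductases Akr1a1 and Akr7a2 differed by -0.022 and 0.000095.

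Ephx2, soluble epoxide hydrolase and the partner of Ephx1 in epoxide breakdown, read 1.77, 2.66 and 1.36 in the benzyl acetate arrays and 2.79, 1.43 and -1.30 in the vehicle arrays. It was named after its values were seen. Vehicle replicate 3 was far below the other 5 arrays, and the difference of 0.96 had a 95% interval of -1.58 to 3.49.

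All 7 tested superoxide and peroxide enzymes had a higher mean with benzyl acetate, against 54% of all genes. Their median was 0.11, with 0 past the adjusted threshold. The median was 0.038 without benzyl acetate replicate 3, and 6 of 7 were higher when the mean of a gene's probes was used. Gpx4, the phospholipid glutathione peroxidase, had the sole unadjusted p under 0.05 in this list, against 3.82% of all genes higher at that level. Its difference was 0.19 (limma adjusted p = 0.734). Catalase, Cat, differed by 0.15, Gpx1 by 0.11 and Gpx3, the plasma glutathione peroxidase made in proximal tubules, by 0.076. Of 6 listed targets of the aryl hydrocarbon receptor, a sensor that shares Nqo1 as a target with NRF2, 2 were tested. Ahrr differed by -0.16 and Aldh3a1 by 0.071.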

How the data were processed

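Renal cortex RNA of 6 rats, 3 per group, was labelled with Cy3 and hybridised to single-colour Agilent arrays, per the labels. The scanner output that the authors deposited gives intensity per spot, with other columns of 0 or 1 flags. It was made with Feature Extraction 10.7 by Agilent, according to the submitters' processing notes. Its processed signal had background subtracted but no scaling between arrays, per the file headers. A separate table of intensity, also deposited, equalled that signal divided by 1 constant for each array, so it is linear and not centred. Its column medians were 0.1148, 0.1118 and 0.1125 for benzyl acetate and 0.1102, 0.111 and 0.111 for vehicle. All its columns were matched to samples.

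Each processed signal was put on the log2 scale after division by the 75th percentile of the 61537 non-control probes on its array, with outlier spots removed. Probes were tested if all 3 arrays of either group had them well above background, and this set was kept when arrays were left out. Accessions were looked up in a RefSeq table of GRCr8: 28206 probes gave 15645 symbols and 33331 found no match. The grid of the array is tied to an earlier rat assembly. A gene was represented by its probe of highest mean signal. Limma 3.58.1 in R 4.3.3 (lmFit, eBayes, two-sided, Benjamini-Hochberg over all genes or probes, threshold 0.05) was used for the tests. Precision is limited by how many arrays there are. The scaling is relative, so a shift shared by most transcripts would go unseen.

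The members and lists were chosen with earlier results of these data known. Besides the members, each related list was represented by its 2 genes of lowest unadjusted p and its 2 of highest mean signal. Nfe2l2, Keap1, Gstm1, Gpx2, Akr1b10, Ephx2, the adipocyte markers and their sum without Pck1 were added after their values were seen. So were the second probes of Htatip2, Akr1b10 and Nfe2l2, the other Sqstm1 probes, and the transcripts resembling Akr1b8. The alternatives were a block for replicate number or for slide, normexp (offset 50, on the median spot signal), quantile, median or cyclic loess scaling, other probe filters and probe rules, outlier spots kept in, array weights, a robust prior with a trend, the separate intensity table, and each array left out. Same-numbered arrays of both groups did not deviate together, with correlations over genes of -0.11, 0.0075 and 0.00095.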

Additional observations from a re-analysis of the deposited data

How the results depend on the processing

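No member had an adjusted p under 0.05 under any of the 20 alternatives run, 6 of which leave out 1 array. These alternatives are not all separate checks. The slide as a block repeats the fit without vehicle replicate 1. The separate intensity table holds nearly the same scaled signal as the main analysis, so it could hardly give another answer. The number of members with the interval within 1.5-fold was 3 to 5, and within 2-fold 6 to 8. The replicate block called 0 genes and 0 probes. The labels do not say that the replicate numbers pair the animals. Over all genes and over all probes, normexp called 2, both lower with benzyl acetate, and leaving out 1 array called 0 to 2, with the 2 calls without benzyl acetate replicate 1. Cryz was past the threshold with normexp (-1.36, limma adjusted p = 0.0188). Naming genes from a second name column was not run, since the scanner tables used here hold none.

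Signs of single genes turned in the following cases, and the cause was not tested. The slide as a block amounts to leaving out vehicle replicate 1. With that block, Nqo1 was at -0.054, Srxn1 at -0.067, Fth1 at -0.012 and Akr1a1 at 0.0071. With a gene's probe of lowest signal, Nqo1 was at -0.0052, Srxn1 at -0.070, Txnrd1 at 0.072, Fth1 at -0.017 and Aldh3a1 at -0.095. With the mean of the probes, Txnrd1 was at 0.018, Fth1 at -0.017 and Aldh3a1 at -0.012. With array weights, Akr1b8 was at -0.027 and Fth1 at -0.00039. With normexp, Fth1 was at -0.053, Prdx5 at -0.0049 and Akr7a2 at -0.037. With quantile normalization, Fth1 was at -0.066, Ftl1 at -0.038, Prdx5 at -0.0072 and Akr7a2 at -0.039. With median scaling, Fth1 was at -0.028 and Akr7a2 at -0.029, and with cyclic loess at -0.035 and -0.021. Leaving out each array gave -0.054 to 0.49 for Nqo1, -0.16 to 0.029 for Txnrd1, -0.067 to 0.36 for Srxn1, -0.92 to 1.11 for Akr1b8, -0.35 to 0.044 for Me1, -0.014 to 0.029 for Fth1, -0.096 to 0.033 for Akr1a1, -0.020 to 0.015 for Akr7a2 and -0.032 to 0.14 for Tkt.

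Medians of lists near 0 also turned. The members' median was -0.054 with the slide as a block or with vehicle replicate 1 dropped, and -0.0037 with benzyl acetate replicate 3 dropped. That of the NRF2 control genes was -0.012 with normexp, -0.021 with median scaling and -0.0012 with array weights. That of the haem and ferritin genes was -0.028 with quantile normalization and -0.00039 with array weights, and that of the aryl hydrocarbon receptor targets was 0.071 with no filter on dim probes. With 1 array left out, the lowest median was -0.0075 for the NRF2 control genes, -0.0078 for the haem and ferritin genes and -0.0080 for the other NRF2 targets. The highest was 0.017 for the NADPH-producing enzymes and 0.00015 for the quinone, carbonyl and epoxide enzymes.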
